A study of Canis lupus familiaris with 5 samples.

Results

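GL-1 is a canine lymphoid cell line that its submitters labelled as a B-cell leukemia. It was 1 of 5 lines measured, each on 1 Affymetrix canine array, and it was set here against the other 4. These were 17-71, labelled a B-lymphoid malignancy; CL-1, labelled a primitive a/b T-cell leukemia; CLGL-90, an LGL leukemia labelled as LGL T-cell; and CLL-1390, labelled a primitive T-cell leukemia. All 5 lines were grown in RPMI with 10% FBS and were untreated, and no genotype, strain or animal age is given in the labels used here. Its column was found by the name of the line, and no measured value entered that step, but the line was proposed for description with earlier results of these data known. Each line is one culture on one array, so no spread within a line was measured, no p-value is given, and a difference between GL-1 and the other lines cannot be told apart from a difference between single cultures or arrays.

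Lymphocytes develop from progenitors that carry the receptor tyrosine kinase FLT3. These cells join V, D and J gene segments with the RAG1 and RAG2 recombinase, and terminal transferase, encoded by DNTT, adds nucleotides at the joints. Commitment to the B lineage depends on the transcription factors EBF1 and PAX5 and is marked by CD79A, the signalling chain of the B-cell receptor. Myeloid cells follow another course and are known by Fc receptors, lysozyme, calprotectin and granule proteases. Leukemias can keep parts of more than one of these programmes.

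The values are log2 intensities per probe set, the group of short probes that reads one transcript. Array medians lay between 6.87 and 6.996. The 59 control probe sets for sequences that dogs lack reached at most 6.39 to 6.76 per array (6.66 on that of GL-1), and this maximum served as a guide to background. The gap is the distance from GL-1 to the nearest of the other 4 lines. It is positive where GL-1 is above all of them, negative where it is below all of them, and 0 where GL-1 lies within their range. A gap of log2 2 is a 4-fold difference. Each of the 14392 measured genes is given by the one of its probe sets with the highest mean.

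GL-1 was distinguished by a limited set of genes with large gaps. It lay above every other line by log2 2 or more in 51 genes (0.354% of those measured) and below every other line by that much in 21 (0.146%). By log2 1 or more, a 2-fold gap, the numbers were 162 above (1.13%) and 79 below (0.549%). GL-1 was the highest of the 5 lines in 1710 genes (11.9%) and the lowest in 2307 (16.0%). The same count of genes past log2 2 gave 115 above and 35 below for 17-71, 145 and 56 for CL-1, 101 and 24 for CLGL-90, and 61 and 36 for CLL-1390. GL-1 thus had fewer such genes in either direction than any of the other 4 lines. At the edge of the limit, PAN3 lay just inside it with a gap of 2.01 and EIF4E3 just outside with 1.997. On the lower side ACYP2 was inside at -2.04 and THAP10 outside at -1.93.

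**Figure D1:**
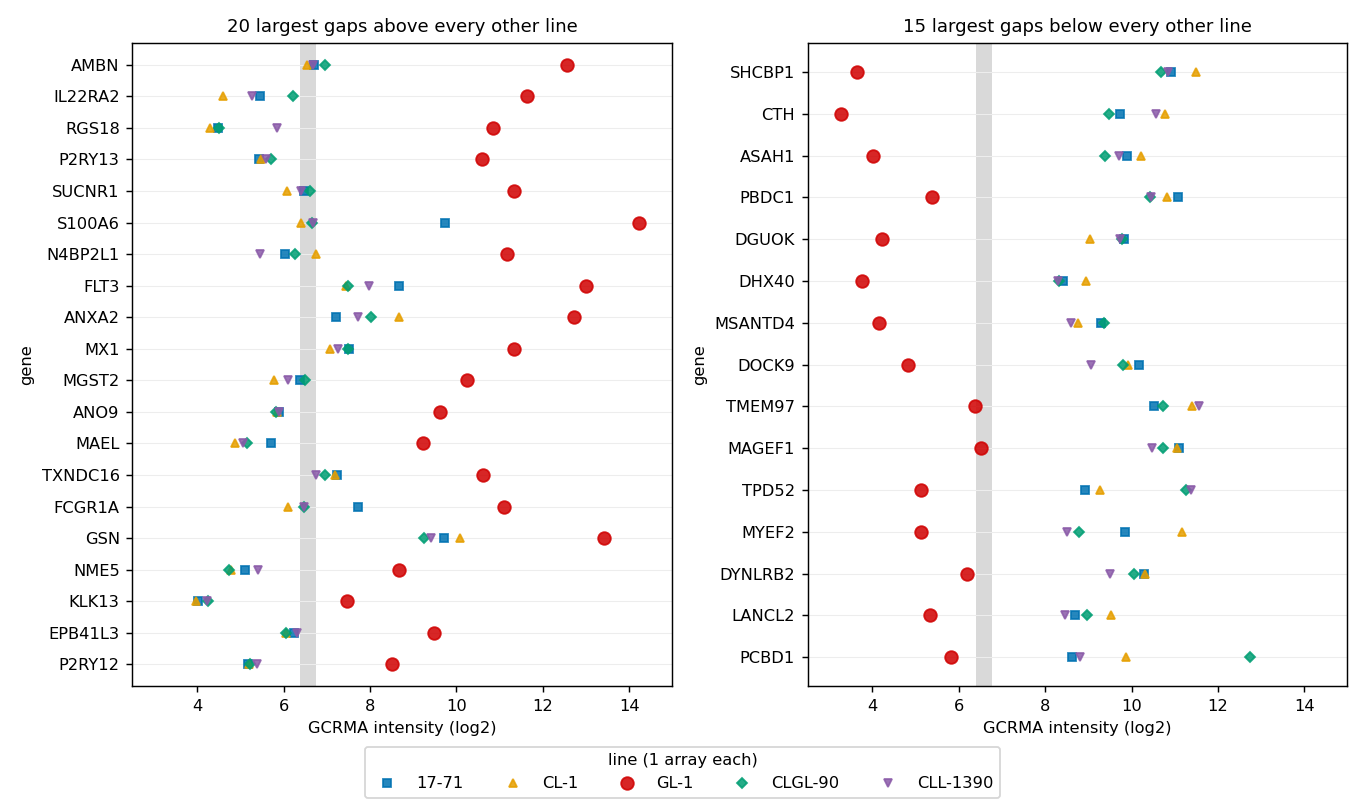
Log2 intensity (horizontal axis) of the 20 genes with the largest gaps above and the 15 with the largest gaps below, 1 symbol per line and 1 array per line; the grey band spans the highest non-dog control of the 5 arrays, 6.39 to 6.76. GL-1 (large circles) stands to the right of all other lines in the left panel, from AMBN with a gap of 5.61 to P2RY12 with 3.13, and to the left of them in the right panel, from SHCBP1 with -7.03 to PCBD1 with -2.81.

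FLT3, the receptor of early progenitors, was among the genes that set GL-1 apart most. It read 13.0002 in GL-1, 8.67 in 17-71, 7.98 in CLL-1390, 7.49 in CLGL-90 and 7.44 in CL-1. The gap was 4.33 (20.1-fold), and its further probe set gave 4.86. PAN3, which encodes a subunit of a poly(A) nuclease and lies next to FLT3 in the genome, read 9.41 against 6.29 to 7.41 in the other lines. FLT1, on the far side of PAN3, read 6.11 in GL-1 and 5.62 to 6.19 elsewhere, within the same range.

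The recombination genes were split. DNTT read 8.59 in GL-1 and 5.54 to 6.04 in the other lines, a gap of 2.55. RAG2 read 8.31 against 5.62 to 6.14, a gap of 2.17. RAG1, its partner in the recombinase, read 5.58 in GL-1 and 5.32 to 5.88 elsewhere, under the highest non-dog control in all 5 lines. Each of these 3 genes had 1 measured probe set. Of 13 measured genes for V(D)J joining and the pre-B receptor, 7 were highest in GL-1 and 2, NHEJ1 and XRCC6, lowest, beside 11.9% and 16.0% of all genes. LIG4, POLL, HMGB2 and DCLRE1C were among the 7 by gaps of only 0.064, 0.048, 0.044 and 0.027. DNTT, also among the 7, was a preset marker of the line. The gene lists here and below were chosen with earlier results of these data known. Their counts describe the genes and support nothing further. Over the 13 genes the median distance of GL-1 from the middle of the other 4 lines (their median, gene by gene; called the median difference from here on) was 0.29, beside -0.036 over all genes.

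Among 21 measured genes of early progenitors, that median difference was 0.70. 13 of the 21 lay above the median of the other lines, beside 43.5% of all genes, but FLT3 alone, a preset marker, had a gap past log2 1. LMO2, a cofactor of progenitor transcription complexes, read 11.60 in GL-1, 12.87 in CLL-1390 and 6.76 to 8.37 in the other lines. MYB, a progenitor transcription factor, read 11.89 in GL-1, close to 12.01 in CL-1 and 11.23 in CLL-1390, and 7.31 and 8.05 in 17-71 and CLGL-90. MEIS1 (8.74 against at most 8.17) and ERG (7.98 against at most 7.34) were highest in GL-1 with CLL-1390 next; the 2 further ERG probe sets gave no gap. KIT and CD34, which mark stem and progenitor cells, were not high. KIT read 7.76 in GL-1 and 10.46 in 17-71, and CD34 read 7.01 in GL-1 and 10.27 in CLL-1390.

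Some B-lineage genes accorded with the label of GL-1 and others did not. CD79A read 7.83 in GL-1 and 5.15 to 5.80 in the other lines, which all lay under the highest non-dog control; the gap was 2.03. EBF1 read 7.71 in GL-1 and 6.23 to 6.41 elsewhere, and its 2 further probe sets gave larger gaps of 2.90 and 2.55. PAX5, the commitment factor of the lineage, read 6.99 in GL-1 and 6.83 to 7.18 in the other lines. MS4A1, which encodes the mature B-cell antigen CD20, read 5.83 in GL-1 and 5.71 to 6.79 elsewhere. CD79A and EBF1 therefore singled out GL-1 among the 5 lines, including from 17-71 with its B label, whereas PAX5 and MS4A1 singled out no line by more than log2 1. Of 24 measured B-lineage genes 6 were highest in GL-1 and 1 lowest, beside 11.9% and 16.0% of all genes, and the median difference was 0.07. CD79A, a preset marker, was among the 6. Whether the culture is what its label says was not tested, and the B label is used below as the submitters' label only.

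The kinases of B-cell receptor signalling were high in GL-1 together with 17-71 and CLL-1390. BTK read 11.46 in GL-1, 11.52 in 17-71 and 11.23 in CLL-1390, but 4.68 in CLGL-90 and 3.93 in CL-1. SYK was highest in GL-1, at 10.97, with 9.91 in CLL-1390, 9.33 in 17-71, 6.30 in CLGL-90 and 5.43 in CL-1. LYN followed the same order, at 11.00 in GL-1 and 10.66 in CLL-1390. Their adaptor BLNK did not share this pattern, at 5.35 in GL-1 and in CL-1, 5.68 in CLL-1390, 8.12 in 17-71 and 9.90 in CLGL-90. The further BLNK probe set did not split the lines in this way, at 6.49 in GL-1 and 6.07 to 6.83 elsewhere. BTK, SYK and LYN also act in myeloid cells.

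T-lineage genes gave a mixed picture. None of the 25 measured had a gap past log2 1 in either direction, beside 1.13% above and 0.549% below over all genes. The median difference was -0.061, a sign that turned in 2 of 13 alternative settings. Yet CD3D, a chain of the T-cell receptor complex, read 9.78 in GL-1, between 10.89 in CLL-1390 and 5.44 in CL-1, with 13.51 in CLGL-90 and 5.14 in 17-71. CD3G read 10.01 in GL-1, 12.69 in CLGL-90, 8.86 in CLL-1390, 5.75 in 17-71 and 5.34 in CL-1. GL-1 thus had more signal for CD3D and CD3G than CL-1, a line with a T-cell label. The T-cell transcription factors LEF1 (9.00, with 10.83 in CLL-1390 and at most 4.95 in the other 3) and TOX (10.63, with 11.72 in CLL-1390 and at most 7.92) were shared with CLL-1390. CD7, an antigen of early T cells, read 8.92 in GL-1, 9.25 in CLL-1390, 10.31 in CLGL-90, 5.96 in 17-71 and 5.38 in CL-1.

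Other T-cell genes were near background in GL-1. CD247, which encodes the zeta chain that signals for the T-cell receptor, read 5.85 in GL-1 and 11.16 and 10.64 in CL-1 and CLGL-90. CD2, an adhesion receptor, read 5.71 in GL-1, 12.59 in CLGL-90 and 11.42 in 17-71. For CD3E the probe set of higher mean read 7.91 in GL-1 and 7.81 to 10.24 in the others, while a further one read 6.18 in GL-1, 12.80 in CLGL-90 and 8.58 in CLL-1390. SH2D1A (3.94) and CTLA4 (5.02) in GL-1 stayed far under CL-1 (9.80 and 10.40) and CLGL-90 (10.98 and 12.20). Among cytotoxic genes, GZMB, the protease granzyme B, read 7.88 in GL-1, 11.48 in CLGL-90 and 4.81 to 5.09 in the rest, while PRF1, encoding perforin, read 6.72 in GL-1 and 10.72 in CLGL-90.

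**Figure D2:**
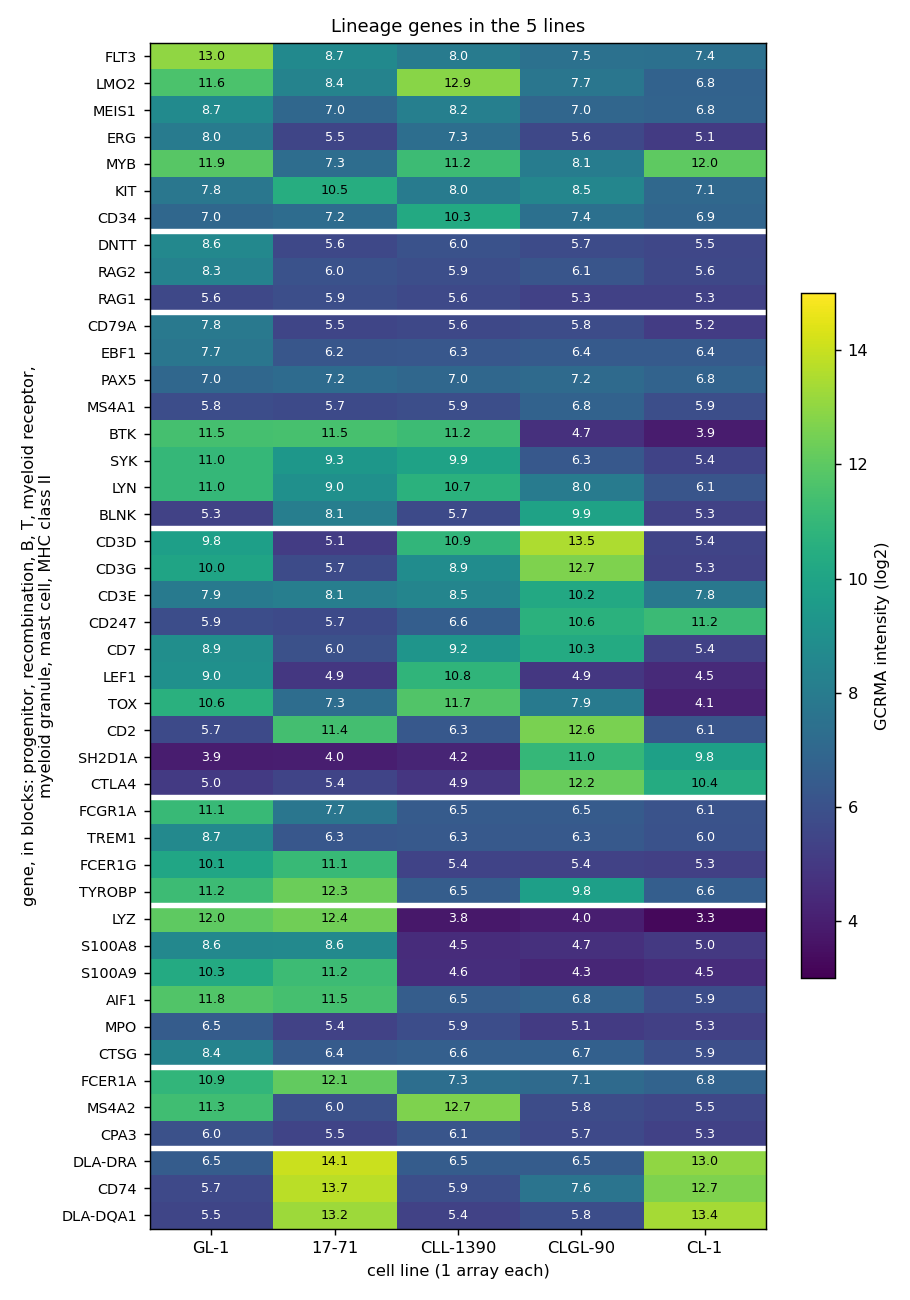
Log2 intensity of lineage genes (rows, in blocks by list) in the 5 lines (columns, 1 array each), with each value printed in its cell. The GL-1 column is bright for FLT3 (13.0002) and for LYZ (12.01) and AIF1 (11.8) of the myeloid blocks, intermediate for CD3D (9.8) and CD3G (10.0), and dark for CD74 (5.7) and DLA-DQA1 (5.5) of MHC class II.

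Some myeloid genes were higher in GL-1 than in some or all of the other lines, in 2 groups, while others were not. The first was higher in GL-1 than in every other line. FCGR1A, the high-affinity IgG receptor of monocytes and macrophages, read 11.10 in GL-1, 7.72 in 17-71 and 6.09 to 6.46 in the other 3 lines, a gap of 3.37 on its single probe set. TREM1, an activating receptor of neutrophils and monocytes, read 8.66 against 6.01 to 6.33, a gap of 2.33. CTSG, the neutrophil protease cathepsin G, read 8.39 against 5.88 to 6.66. MPO, myeloperoxidase, read 6.50 in GL-1 and 5.07 to 5.85 elsewhere, all under the highest non-dog controls.

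The second group was shared with 17-71. LYZ, lysozyme, read 12.01 in GL-1 and 12.39 in 17-71, but 3.28 to 4.02 in the 3 lines with a T label. S100A9, a subunit of calprotectin, read 10.32 in GL-1, 11.22 in 17-71 and 4.28 to 4.55 in the rest. AIF1, an actin-binding protein of macrophages, read 11.76 and 11.46 in these 2 lines and at most 6.76 in the others. FCER1G, the common Fc receptor gamma chain, read 10.09 and 11.09 against at most 5.41, and NCF4, a subunit of the phagocyte oxidase, 10.37 and 11.03 against at most 6.18. SPI1, encoding the transcription factor PU.1, read 8.94 in GL-1, 9.45 in 17-71 and 5.21 to 5.51 in the other lines. In these genes GL-1 and 17-71 lay together and apart from the other 3 lines. Other members of the same lists were high in 17-71 and not in GL-1, so the sharing was partial. CD68, a lysosomal protein of macrophages, read 11.76 in 17-71, 7.22 in GL-1 and 6.91 to 7.73 in the rest. CTSZ, a lysosomal cathepsin, read 13.02 in 17-71, 9.86 in CL-1 and 5.53 in GL-1, and CTSS, cathepsin S, 13.56 in 17-71 and 8.94 in GL-1, the lowest of the 5 lines. FGR, ITGAX and FOS read 11.09, 8.80 and 12.36 in 17-71 and 8.10, 6.24 and 7.67 in GL-1.

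Several defining monocyte and granulocyte genes set no line apart. CD14 read 8.26 in GL-1 and 7.95 to 8.22 elsewhere, CSF1R 6.63 against 6.53 to 6.72, CSF3R 7.53 against 6.995 to 7.81, and ELANE, neutrophil elastase, 6.40 against 6.30 to 6.43. ITGAM read 6.66 in GL-1, within the range of the others. Over 28 measured myeloid receptor and signalling genes the median difference was 0.04, with a sign that turned in 3 of 13 alternative settings. Over 27 granule, lysosome and oxidase genes it was 0.47, positive in every alternative, but 5 of the 27 were highest in GL-1 and 6 lowest, beside 11.9% and 16.0% of all genes. Gaps of log2 1 or more above the other lines were found in 2 of the 28 and 1 of the 27, beside 1.13% of all genes. FCGR1A, a preset marker, was 1 of the 2, so these counts describe the lists and support nothing further.

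Mast cell and basophil genes were divided between partners as well. MS4A2, the beta chain of the high-affinity IgE receptor, read 11.31 in GL-1 and 12.68 in CLL-1390 but 5.54 to 5.96 in the other 3 lines. FCER1A, its alpha chain, read 10.91 in GL-1 and 12.14 in 17-71 and at most 7.31 elsewhere. Of the 5 lines, GL-1 alone was therefore high for both of these chains together with the gamma chain FCER1G. ENPP3, a basophil surface enzyme, read 10.33 in GL-1 and at most 8.64 in the others, and CMA1, mast cell chymase, 9.04 against at most 7.78. CPA3, mast cell carboxypeptidase, read 5.98 in GL-1 and 5.32 to 6.14 elsewhere. KIT, the mast cell growth factor receptor, read 7.76 in GL-1 as given above, also below CLGL-90 at 8.51. Markers of fibroblasts and endothelium gave no gap past log2 1 among 23 genes, beside 1.13% above and 0.549% below over all genes. COL1A1 read 5.46 and PECAM1 5.62 in GL-1, both within the range of the other lines.

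The P2Y12-like receptors, G-protein-coupled receptors for nucleotides and metabolites, had the largest median difference of the gene lists examined. P2RY13, an ADP receptor, read 10.59 in GL-1, 5.42 in 17-71, 5.48 in CL-1, 5.59 in CLL-1390 and 5.72 in CLGL-90, a gap of 4.88 (29.4-fold). SUCNR1, the receptor for succinate, read 11.34 against 6.08 to 6.61, a gap of 4.73. P2RY12, the ADP receptor of platelets and microglia, read 8.51 against 5.18 to 5.38, a gap of 3.13, and its further probe set gave 5.46. P2RY14, the receptor for UDP-glucose, read 10.70 in GL-1 and 8.58 in 17-71, with 5.69 to 6.41 in the other 3. The other lines lay under the highest non-dog control for the first 3 of these genes, so each gap is bounded by background on that side.

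GPR171, a further receptor of the cluster, was high in most lines, at 12.26 in GL-1, 11.36 in 17-71, 11.01 in CLL-1390, 10.99 in CLGL-90 and 7.82 in CL-1. All 5 measured members of the list were thus highest in GL-1, beside 11.9% of all genes, and 4 of them by log2 2 or more, beside 0.354%. Their median difference was 4.51. P2RY13 was a preset marker and the list was chosen with earlier results of these data known, so these counts describe the cluster and support nothing further. The 5 measured members lie in one stretch of the dog genome. Gene order there runs GPR171, P2RY14, P2RY13, P2RY12, AADACL2 and SUCNR1 when unmeasured genes are left out. AADACL2, within the stretch, read 5.73 in GL-1 and 5.54 to 5.83 elsewhere. The genes outside it did not stand apart either: CLRN1 read 7.18 in GL-1 and 7.03 to 7.46 elsewhere, and MBNL1 13.09 against 12.31 to 12.997.

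**Figure D3:**
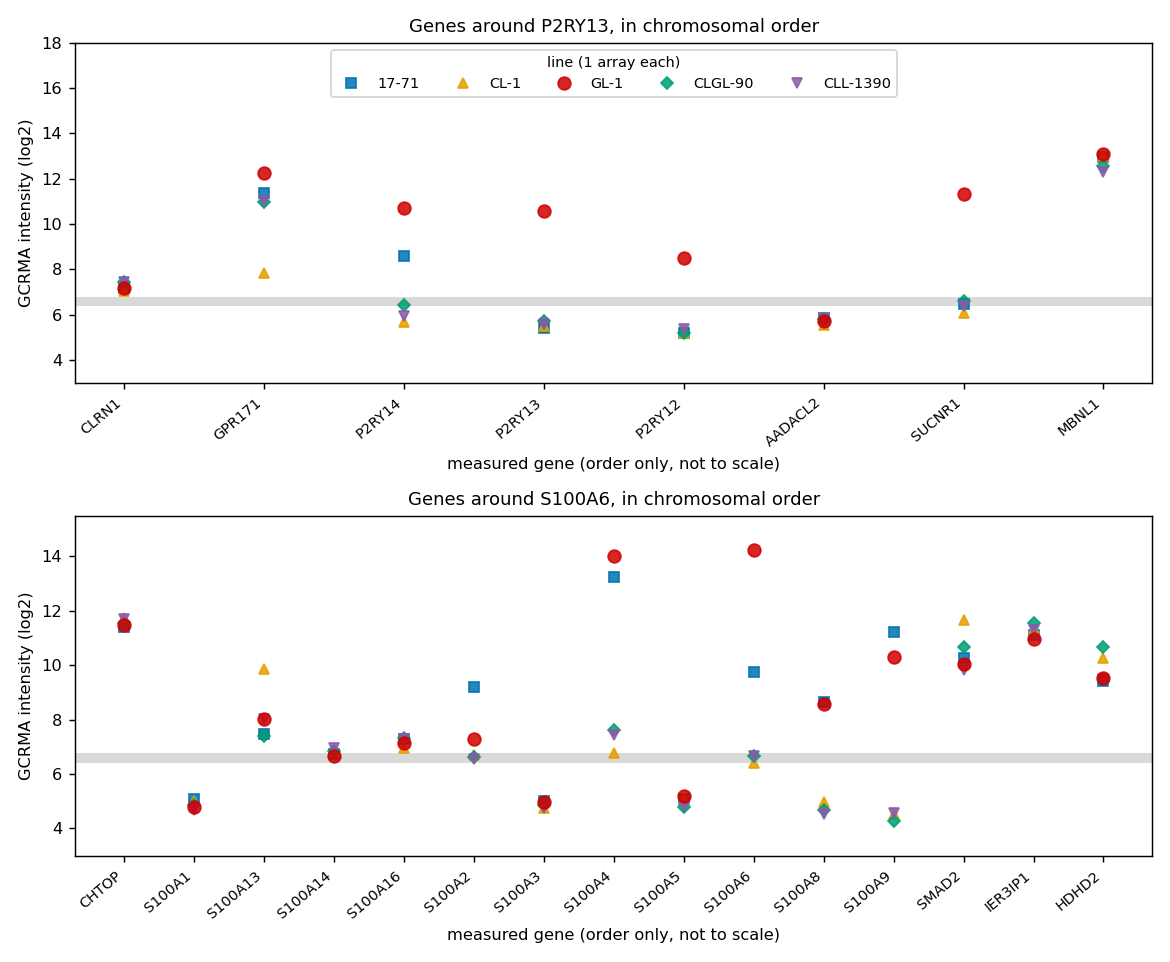
Log2 intensity (vertical axis) of measured genes in chromosomal order around P2RY13 (top) and S100A6 (bottom), 1 symbol per line with 1 array each; spacing is not to scale, and the grey band spans the highest non-dog control of the 5 arrays. In the top panel GL-1 stands clear of all others at P2RY14 (10.70), P2RY13 (10.59), P2RY12 (8.51) and SUCNR1 (11.34) but not at AADACL2; in the bottom panel it stands clear at S100A6 (14.22) and lies with 17-71 at S100A4, S100A8 and S100A9.

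Outside the cluster, 2 further G-protein-coupled receptors for small molecules had large gaps. ADORA3, an adenosine receptor, read 10.07 in GL-1 and 6.53 to 7.04 in the other lines, a gap of 3.03. FFAR2, a receptor for short-chain fatty acids on leukocytes, read 10.06 against 6.27 to 7.14, a gap of 2.92. The ADP receptor P2RY1 and the ATP-gated channel P2RX7 did not follow, at 5.44 and 7.25 in GL-1 against 5.45 to 5.93 and 6.44 to 8.55 elsewhere. RGS18, a regulator that switches off G-protein signals and is abundant in platelets, read 10.85 in GL-1, 5.85 in CLL-1390 and 4.29 to 4.50 in the other 3, a gap of 5.00. RGS1, another member of the family, read 10.93 in GL-1 and 13.02 in CLGL-90. The platelet and erythroid genes ITGA2B, GATA1 and KLF1 read 7.83, 7.41 and 6.97 in GL-1, each within the range of the other lines.

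S100A6, a calcium-binding protein known as calcyclin, read 14.22 in GL-1, 9.73 in 17-71, 6.67 in CLL-1390, 6.66 in CLGL-90 and 6.40 in CL-1, and its 3 probe sets gave gaps of 4.49, 5.15 and 4.70. S100A4, 2 genes away, read 14.02 in GL-1 and 13.24 in 17-71 and 6.78 to 7.62 in the rest. S100A8 read 8.59 and 8.64 in these 2 lines and at most 4.98 elsewhere. S100A5, between S100A4 and S100A6, read 5.19 in GL-1 and 4.78 to 5.07 in the other lines. The run of S100 genes was therefore not uniformly high: S100A6 was set apart in GL-1 alone, 3 members were shared with 17-71, and others were level across the lines.

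The annexins, calcium-dependent membrane-binding proteins some of which pair with S100 proteins, leaned towards GL-1. ANXA2 read 12.72 in GL-1, 8.67 in CL-1, 8.01 in CLGL-90, 7.73 in CLL-1390 and 7.21 in 17-71, and its further probe sets gave gaps of 1.52 and 4.25. ANXA3 read 12.18 in GL-1, 9.79 in CLGL-90 and 5.76 to 7.41 in the other 3, a gap of 2.39. ANXA4 and ANXA6 had gaps of 1.22 and 1.25. Of the 10 annexins measured, 7 were highest in GL-1, beside 11.9% of all genes, and the median difference was 1.27. This list was drawn up after the values had been seen, so its counts describe the family and support nothing further. S100A10, the usual partner of annexin A2, ran the other way: its probe set of highest mean read 7.24 in GL-1 and 11.18 in CLGL-90, and another read 4.69 in GL-1 and 4.80 in 17-71 against 9.86 to 12.14 in the 3 lines with a T label.

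The largest gap above the other lines among genes with a name was that of AMBN, which encodes ameloblastin, a protein of the enamel matrix. AMBN read 12.56 in GL-1, 6.95 in CLGL-90, 6.70 in 17-71, 6.68 in CLL-1390 and 6.55 in CL-1, a gap of 5.61 (48.9-fold). Its further probe set, at 11.45 in GL-1 and 4.90 to 5.36 in the others, gave 6.09. Its neighbours in the same gene cluster were level, with AMTN at 6.64 in GL-1 (6.55 to 6.89 elsewhere) and ENAM at 5.16 (5.34 to 5.56 elsewhere). IL22RA2, which encodes a soluble receptor that binds interleukin 22, read 11.64 in GL-1 and 4.60 to 6.23 elsewhere. A second IL22RA2 probe set stayed between 3.20 and 3.69 in all 5 lines, so the gap of 5.41 rests on 1 of its 2 probe sets. Its neighbour IL20RA was level (8.21 in GL-1, 8.07 to 8.34 elsewhere).

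Further genes with large gaps belonged to no one pathway. MX1, an interferon-induced antiviral GTPase, read 11.34 in GL-1 and 7.06 to 7.51 in the other lines, while ISG15, another interferon target, read 8.78 against 7.15 to 8.44, and IFI44L read 5.37 in GL-1 and 7.07 to 8.78 elsewhere, a gap of -1.70 that its 2 further probe sets gave as only -0.37 and -0.39. GSN, the actin-severing protein gelsolin, read 13.43 in GL-1 and 9.26 to 10.09 in the rest, with gaps of 3.34, 3.25 and 4.03 on its 3 probe sets. MGST2, a microsomal glutathione transferase, had gaps of 3.75 and 5.78. N4BP2L1 had gaps of 4.42 and 5.56. EPB41L3, a membrane skeleton protein, had a gap of 3.17, and 5 of its 7 further probe sets gave 2.54 to 5.59 while 2 gave 0.08 and 0.21. MAEL, a germline protein of the piRNA pathway, TXNDC16, NME5 and the protease gene KLK13 had gaps of 3.52, 3.38, 3.24 and 3.21 on 1 probe set each. KLK13 read 7.47 in GL-1, only a little over the highest non-dog control of 6.66.

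Genes below every other line were fewer and reached larger gaps. SHCBP1, an adaptor protein active in dividing cells, read 3.66 in GL-1, 10.69 in CLGL-90, 10.85 in CLL-1390, 10.91 in 17-71 and 11.50 in CL-1. Its gap was -7.03, the widest of all genes in either direction, and its further probe set gave -4.69. The other measured genes of cytokinesis and mitotic exit did not share this: RACGAP1 read 10.84 in GL-1 and 10.37 to 10.82 elsewhere, KIF23 10.60 against 10.27 to 10.90, and ECT2 9.58 against 8.94 to 10.17. SHCBP1 was the only one of 24 in that list with a gap past log2 1, beside 1.13% above and 0.549% below over all genes. DNA replication genes lay slightly above the median of the other lines, with a median difference of 0.29 over 26 genes and no gap past log2 1.

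Several enzymes were low in GL-1 alone. CTH, which makes cysteine from cystathionine, read 3.27 in GL-1 and 9.47 to 10.78 in the other lines, a gap of -6.20. Its further probe sets were unequal, with gaps of -2.21 and 0.00, and CBS, the preceding enzyme of the pathway, read 8.08 in GL-1 and 7.04 to 8.22 elsewhere. ASAH1, acid ceramidase, read 4.02 in GL-1 and 9.39 to 10.22 elsewhere, and its 2 probe sets gave -5.37 and -4.77. In the same sphingolipid list SGMS1, a sphingomyelin synthase, was above every other line by 1.69 (11.06 in GL-1, 9.37 in 17-71). DGUOK, the mitochondrial deoxyguanosine kinase, read 4.22 in GL-1 and 9.04 to 9.83 in the rest, with gaps of -4.81 and -3.45, while DCK, the cytosolic deoxycytidine kinase that activates several nucleoside drugs, read 12.06 in GL-1 and 8.69 to 10.67 elsewhere.

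Of the remaining large gaps below, DYNLRB2, a dynein light chain (-3.30 and -4.72), TPD52 (-3.82 and -2.05) and MAGEF1 (-3.98 and -1.23) were low on each of their 2 probe sets. PBDC1 (-5.05), the helicase gene DHX40 (-4.54), MSANTD4 (-4.44) and MYEF2 (-3.39) had 1 probe set each. DOCK9, an activator of the GTPase CDC42, had a gap of -4.22 on 1 probe set and -0.50 and 0.00 on its others, and LANCL2 had -3.11 and -0.56. PCBD1 had -2.81, with 1 of 4 further probe sets past log2 1. For DOCK9, LANCL2 and PCBD1, then, fewer further probe sets showed the gap than did not. CDKN1A, the cell cycle inhibitor p21, read 8.07 in GL-1 and 9.93 to 12.32 in the other lines, a gap of -1.86, while its 2 further probe sets gave -0.11 and -0.25.

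TMEM97, a membrane protein tied to cholesterol handling, read 6.38 in GL-1 and 10.52 to 11.56 in the other lines, with gaps of -4.14 and -3.45. Enzymes of sterol synthesis lay on the same side. SQLE, squalene epoxidase, read 10.53 in GL-1, 12.43 in 17-71, 12.95 in CL-1, 13.11 in CLL-1390 and 13.16 in CLGL-90, and its 3 probe sets gave gaps of -1.90, -2.18 and -2.06. HMGCS1, which makes the precursor of mevalonate, read 11.02 in GL-1 and 12.12 to 13.80 elsewhere. SC5D and ACAT2 had gaps of -1.04 and -1.08. Of 21 genes measured in this list, which includes TMEM97 itself, 13 were lowest in GL-1, beside 16.0% of all genes, and none highest. TMEM97 was also among the 5 that were lowest by log2 1 or more, beside 0.549% of all genes, and was the only 1 past log2 2. The median difference was -0.98, and it ran from -1.16 to -0.80 over the alternative settings. PMVK and HSD17B7 went the other way by 0.23 and 0.25 from the median of the other lines. The list was drawn up after TMEM97 and other values had been seen, so its counts describe these genes and support nothing further.

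**Figure D4:**
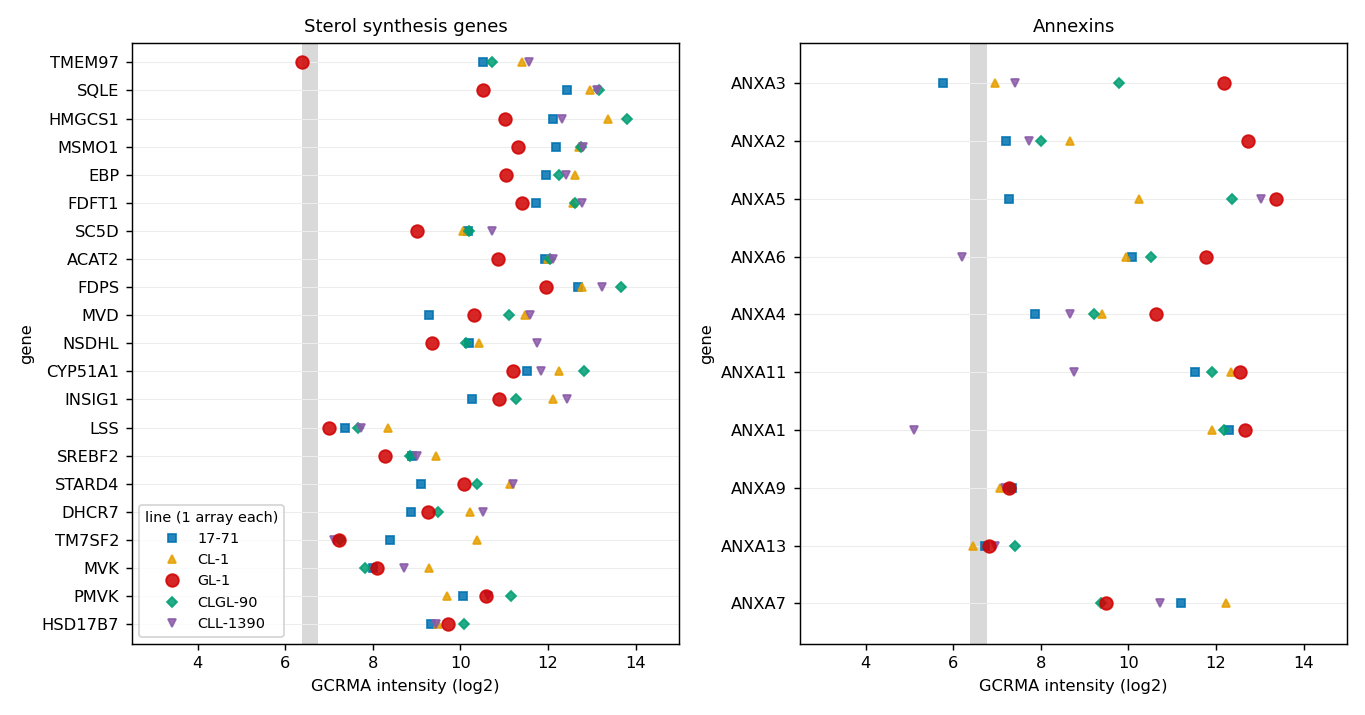
Log2 intensity (horizontal axis) of the 21 sterol synthesis genes (left) and 10 annexins (right), 1 symbol per line with 1 array each; genes are ordered by the difference of GL-1 from the median of the other 4 lines, and the grey band spans the highest non-dog control of the 5 arrays. GL-1 (large circles) is the leftmost line in 13 of the 21 sterol genes, TMEM97 included, and the rightmost in 7 of the 10 annexins.

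The main antigen-presenting MHC class II genes were near background in GL-1, as in 2 of the lines with a T label. DLA-DRA read 6.47 in GL-1, 6.47 in CLL-1390 and 6.51 in CLGL-90, but 14.05 in 17-71 and 13.005 in CL-1. CD74, the invariant chain, read 5.66 in GL-1, 5.89 in CLL-1390 and 7.62 in CLGL-90, with 13.74 in 17-71 and 12.67 in CL-1. DLA-DQA1 followed the same division, at 5.53 in GL-1 and 13.23 in 17-71. CIITA, the activator of these genes, read 9.52 in GL-1 and 9.20 to 9.76 elsewhere. Its further probe set read 6.38 in GL-1, 6.73 in CLGL-90, 6.75 in CLL-1390, 6.97 in CL-1 and 7.52 in 17-71. DLA-DOA, a chain of the protein that modulates peptide loading, ran the other way, at 8.77 in GL-1 and 7.48 to 8.12 elsewhere, and its further probe set read 10.35 against 6.11 to 8.10, a gap of 2.25. Over 15 genes the median difference was -1.70, and it ran from -2.91 to -0.29 over the alternative settings. In GL-1, 6 were lowest and 1 highest, beside 16.0% and 11.9% of all genes. No gene-level gap passed log2 1 in either direction, beside 1.13% above and 0.549% below over all genes. Of MHC class I, B2M, the light chain, read 14.34 in GL-1 and 13.90 to 14.41 elsewhere. DLA88, a heavy chain, read 13.59 in GL-1 and 12.75 to 13.997 elsewhere on its probe set of highest mean, but a further one split the lines, reading 13.78 in CLGL-90 and 13.55 in CL-1 but 4.05 in GL-1, 3.94 in CLL-1390 and 3.75 in 17-71. DLA-79, another heavy chain, read 7.85 in GL-1 and 7.58 to 13.68 elsewhere. Class I heavy chain genes are near copies of each other and vary between dogs, so their probe sets may not tell them apart.

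Beyond single genes, GL-1 had most in common with CLL-1390 by the number of shared high genes. Both lines lay above the other 3 by log2 2 or more in 27 genes and below them in 10. With 17-71 the counts were 24 and 5, with CL-1 9 and 7, and with CLGL-90 7 and 5. The genes named for these pairs lie partly outside the rule for named genes and were chosen after their values were seen. CA2, carbonic anhydrase 2, read 13.32 in GL-1 and 12.87 in CLL-1390 and at most 5.54 in the others. CCR9, a gut and thymus homing receptor, read 11.50 and 11.16 against at most 6.93, and the glutamate transporter SLC1A3 9.70 and 10.73 against at most 4.49. Among genes low in both, MEIS2 read 3.87 and 4.22 (GL-1 first) while the other 3 lines read at least 8.50, and the lactate transporter SLC16A1 4.14 and 4.36 against at least 8.09.

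The other partners shared different genes with GL-1. With CLGL-90, FABP5, a fatty acid-binding protein, read 4.14 in GL-1 and 4.38 in CLGL-90 against at least 11.20 in the other 3 lines, and ME1, malic enzyme, 3.43 and 3.47 against at least 7.61. With CL-1, TSPAN12 read 11.25 in GL-1 and 10.37 in CL-1 against at most 6.76, and PLAC8A 6.11 and 5.53 against at least 11.73. By Pearson's r over 37793 probe sets, as a description, GL-1 lay at 0.922 with CLL-1390, 0.913 with 17-71, 0.900 with CLGL-90 and 0.886 with CL-1. In single comparisons, GL-1 differed by log2 2 or more in 462 genes from CLL-1390, 578 from 17-71, 587 from CLGL-90 and 761 from CL-1. Both measures put GL-1 nearer to CLL-1390, with its T label, than to 17-71, with its B label, but no spread between cultures of a line is known for either of them.

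How far the probe sets of a gene agreed was the one check within the array. Of the 51 genes above, 30 had a single measured probe set and 21 had more. In 19 of these 21 at least 1 further probe set was past log2 1 in the same direction, and in 17 every one was; the 2 without such support were ANO9, whose further probe set gave 0.89, and THADA, with 0.16. Counted by probe set, 29 of 35 further ones (82.9%) were past log2 1, beside 182 of 11968 (1.52%) over all genes. Of the 21 genes below, 6 had 1 probe set, and 12 of the other 15 had support; DOCK9, LANCL2 and GCFC2 had none. Here 15 of 23 further probe sets (65.2%) were past log2 1, beside 52 of 11968 (0.434%). Probe sets of one gene share the RNA, the array and sometimes probes, so their agreement bears on the reading of a gene and not on whether another culture of GL-1 would show it.

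**Figure D5:**
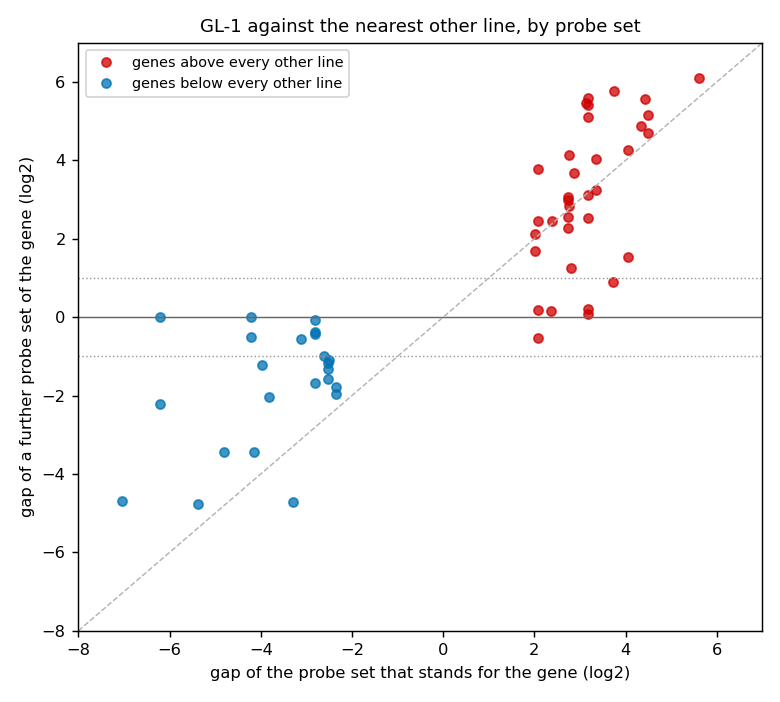
Gap of each further probe set (vertical axis, log2) against the gap of the probe set that stands for the gene (horizontal axis, log2) for genes past log2 2 in either direction; dotted lines mark log2 1 and -1, and the dashed line marks equal gaps. In the upper right 29 of 35 points lie above the dotted line, and in the lower left 15 of 23 lie below it.

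Background limits the size of many of these gaps. In all 51 genes above, GL-1 exceeded its highest non-dog control, and in 25 of them all 4 other lines were at or under theirs; in 13 none was. Of the 21 genes below, GL-1 was at or under its control in 20, ACYP2 at 7.18 being the exception, while all other lines were over theirs. With values under the highest non-dog control raised to it, the smaller difference that remains is a lower bound for the probe set that stands for the gene. It is not a bound for the further probe sets. Those of SHCBP1, DGUOK and ASAH1 had smaller gaps, of -4.69, -3.45 and -4.77. On the probe set that stands for it, SHCBP1 was then at least 16.3-fold lower in GL-1, DGUOK at least 5.18-fold and ASAH1 at least 6.64-fold. RGS18 was at least 17.0-fold higher, P2RY13 at least 14.3-fold, DNTT at least 3.56-fold and CD79A at least 2.10-fold higher.

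Genes next to those with gaps past log2 2 in the dog genome mostly did not share their gaps. Among 101 measured neighbours of the genes above, 6 were past log2 1 in the same direction, beside 1.13% of all genes. These joined P2RY13 to P2RY12 and P2RY14, and FLT3 to PAN3. Each pair was counted from both ends, and all of these genes were themselves among the 51 above. Among 42 neighbours of the genes below, there was 1, MRPL19 beside GCFC2, with a gap of -1.16. Over all genes the share was 0.549%.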

How the data were processed

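Total RNA of each line, extracted with Trizol, was labelled with biotin and hybridised to 1 array, per the labels. The authors deposited log2 intensities per probe set. The submitters' processing notes name GCRMA, but neither a version nor scanner settings, nor the genome build of the probe design, which are not given in the sources here. GCRMA subtracts background by a model and equalises arrays, which sets the scale of low values. The number of arrays limits the precision.

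Of 43035 probe sets, 111 controls were left out; 37793 reached log2 5 on at least 1 array and were kept, and 5131 did not. Annotation gave 1 gene symbol for 29254 probe sets, several for 439 and none for 13231, and for 27680 of the probe sets with 1 symbol (94.6%) the gene ID was found in the RefSeq table of UU_Cfam_GSD_1.0, used for names and gene order.

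Gaps and differences were computed in Python 3.11.15 with pandas 2.3.3, and no statistical test was run. A run on simulated data with planted gaps checked the arithmetic only and says nothing about these arrays. The genes named are the 20 genes furthest above and the 15 furthest below, 6 markers, and in each of 34 gene lists the defining members and up to 6 others with the largest differences, with neighbours in gene order. Only some of the list members so named are printed. The line, its markers and the lists were chosen with earlier results of these data known, and 2 lists (sterol synthesis and annexins) after the values. Alternatives were other filters, scalings, a background floor, probe set choices, the median as reference, and leaving out each other line.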

Additional observations from a re-analysis of the deposited data

How the results depend on the processing

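The counts of 51 genes above and 21 below, and the share of genes with further probe sets that had 1 or more past log2 1 the same way (86.1%), were recomputed under 13 alternatives. The share has no value with the median of a gene's probe sets, where no further probe set remains. Against the median of the other 4 lines instead of the nearest, 233 genes lay above and 112 below. Leaving out 1 other line gave 64 to 88 above and 30 to 33 below, the most without 17-71 or without CLL-1390. With values raised to the highest non-dog control, 12 genes lay below and 38 above; 10 of 37 named gaps then fell under log2 2 (NME5, KLK13, P2RY12, DHX40, MSANTD4, MYEF2, LANCL2, PCBD1, DNTT and CD79A). With a filter at log2 7 the share was 96.8%. The count above was 72 with each gene's most variable probe set and 57 with the median of its probe sets, where LANCL2 and PCBD1 fell under log2 2. Of differences from the median of the other lines, that of IL6ST turned from -2.32 to 0.0138 with the floor, and that of CADM1 from -2.93 to 0.0599 without CLGL-90 (-7.59 without 17-71 or CLL-1390); the floor lifts IL6ST in all 5 lines towards one value, and the cause for CADM1 was not tested. No paired analysis was possible because each line is 1 array. Signal near background limits the gaps of genes low in GL-1 most.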

Other observations

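Some lymphoid gene groups without a place above also varied between GL-1 and its partners; they are given as values only. Among homing and adhesion genes, ITGB1, an integrin beta chain, read 11.80 in GL-1, 10.57 in 17-71, 10.47 in CLL-1390, 7.77 in CL-1 and 7.67 in CLGL-90, a gap of 1.23. Its further probe set put GL-1 within the range of the others, at 6.38 against 5.97 to 7.23. CCR7, the lymph node homing receptor, read 5.90 in GL-1 and 9.42 in CL-1. Among cytokine receptor and JAK-STAT genes, the feedback inhibitors SOCS2 and CISH were high in GL-1 (9.08 and 8.59) and CLGL-90 (9.40 and 10.25) and read at most 6.66 in the other 3 lines. IL7R, a receptor of lymphoid progenitors, read 8.05 in GL-1, 9.70 in 17-71 and at most 6.72 elsewhere. None of 35 genes in that list had a gap past log2 1, beside 1.13% above and 0.549% below over all genes.

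Genes of drug response and survival were mostly within the range of the other lines. ABCB1, the P-glycoprotein efflux pump, read 3.97 in GL-1 and 8.96 in CLGL-90, while ABCG2, another efflux pump, read 9.10 in GL-1, 9.98 in CLL-1390, 8.67 in CL-1 and 5.59 to 5.74 in the rest. BCL2, an inhibitor of apoptosis, read 9.44 in GL-1 and 8.27 to 8.69 elsewhere. FKBP5 and NR3C1, a glucocorticoid target and the glucocorticoid receptor, read 10.16 and 9.33 in GL-1, within the range of the others. JCHAIN, the joining chain of polymeric antibodies, read 11.96 in GL-1, 11.75 in CLGL-90 and 9.31 to 9.52 in the other 3. Its further probe sets set GL-1 further apart from CLGL-90, at 10.13 against 8.23 and 6.54 against 5.86, with gaps of 1.90 and 0.68.

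Of 11433 measured probe sets without a single gene symbol, 39 lay above every other line by log2 2 or more and 15 below. Over all 37793 measured probe sets these counts were 147 and 48, so those without a symbol did not stand out. Their largest gaps were 6.87 and -6.21.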
